A study of Mus musculus with 36 samples.

Results

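The 35 genes described here encode chaperones, folding enzymes, degradation factors, translocon subunits and stress sensors of the endoplasmic reticulum (ER). They were listed by name as a module of ER chaperones and the unfolded protein response, under a rule that uses no measured value although earlier results of these data were known, and all 35 were found among the 21968 genes of the count table. Single mouse oocytes at the germinal vesicle (GV) stage, arrested in meiotic prophase, were sequenced as 36 libraries. The labels assign 18 oocytes of 4 mice (a to d) to the genotype Drp1_KO and 18 oocytes of 5 mice (1 to 5) to Drp1_WT. Drp1, encoded by Dnm1l, is a dynamin-related GTPase that divides mitochondria and peroxisomes. The strain, the age of the mice, the deleted part of the gene and the promoter that drives the deletion are not given in the labels, so both groups are named by their labels alone. The question was whether genes of ER folding and stress signalling differed between the labels, and how they varied from one oocyte to the next.

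Proteins bound for secretion or the cell surface fold in the ER, where BiP (Hspa5), GRP94 (Hsp90b1) and the lectins calnexin and calreticulin hold them until disulphide bonds and glycans are in place. When unfolded protein accumulates, BiP leaves the sensors IRE1, PERK and ATF6. IRE1 then splices Xbp1 mRNA, PERK slows translation and favours ATF4, and ATF6 is cleaved to a transcription factor. Spliced XBP1 and cleaved ATF6 raise the genes of chaperones and of ER-associated degradation, ATF6 through a promoter motif named the ER stress response element (ERSE). Growing oocytes secrete the zona pellucida and growth factors such as GDF9 and BMP15, all of which pass through the ER.

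The exact ERSE motif shows which members carry the classical promoter signature of this response, and it is the sequence to which the oocyte-to-oocyte pattern described further on is compared. The windows ran from 250 bases before to 50 bases after each RefSeq gene start on GRCm38.p6, and 29 of the 35 members had one (Atf6, Derl1, Hspa13, Hyou1, Manf and Sec61a1 were not searched). The motif is CCAAT followed by CCACG after a spacer of any 9 bases. Searched on both strands, it was found in 9 of the 29 windows (31.0%), against 37 of 27025 windows of all genes (0.137%). The members were listed by name as genes of the response that carries this signature. The contrast with all genes, here and for the motifs below, is therefore no test. The matches are given 5′ to 3′ on the strand that carries the motif, with the fixed letters in capitals and the spacer in lower case.
Hspa5, chr2:34772025-34772043, plus strand: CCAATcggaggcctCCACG
Hsp90b1, chr10:86705638-86705656, minus strand: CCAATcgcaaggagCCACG
Hsp90b1, chr10:86705533-86705551, plus strand: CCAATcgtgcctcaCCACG
Calr, chr8:84847075-84847093, plus strand: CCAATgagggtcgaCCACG
Canx, chr11:50325800-50325818, minus strand: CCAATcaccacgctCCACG
Creld2, chr15:88819520-88819538, minus strand: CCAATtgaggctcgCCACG
Pdia6, chr12:17266491-17266509, plus strand: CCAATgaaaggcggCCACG
Dnajc3, chr14:118937827-118937845, plus strand: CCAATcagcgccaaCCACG
Ero1lb, chr13:12565682-12565700, minus strand: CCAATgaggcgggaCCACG
Syvn1, chr19:6046532-6046550, plus strand: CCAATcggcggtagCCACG
Every spacer differs as a whole, although some begin with the same bases, as in Calr and Ero1lb or in Hspa5 and Syvn1. Bases outside the matches were not compared. The Hspa5 match covers bases 65 to 47 before the RefSeq gene start, inside the gene as GENCODE M21 draws it (ENSMUSG00000026864, chr2:34771970-34777547, plus strand), and the other matches lie between 212 and 26 bases before it. Hsp90b1 was the only member with a pair of matches, on opposite strands.

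The shorter ERSE-II motif, ATTGG and CCACG with any 1 base between them, was found in 2 of the 29 windows, against 12 of 27025 (0.0444%). It is shown because these members, a BiP cochaperone and a stress-induced degradation factor, had no match to the full ERSE.
Herpud1, chr8:94386377-94386387, plus strand: ATTGGgCCACG
Dnajb11, chr16:22857852-22857862, plus strand: ATTGGcCCACG
The Herpud1 match precedes the gene start and the Dnajb11 match follows it. The ERSE-II letters read on the other strand contain CCAAT, so the searches overlap with those for the separate parts of the motif. CCAAT alone was in 24 of 29 windows of members (82.8%) against 41.1% of all windows, and CCACG alone was also in 24 (82.8%) against 35.5%. TGACGTGG, a site associated with XBP1, and TGATGNAAT, resembling sites of ATF4, were each in 0 of 29 windows, against 0.714% and 1.08% of all windows. A match is a description of letters in a window and was not tested for binding in these cells.

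Library totals ran from 3178509 to 7406895 counts, and 11350 to 14659 genes had a count. Dnm1l was at 144 to 274 CPM (a gene's counts scaled to a common library total) in oocytes labelled Drp1_KO and at 116 to 322 CPM in those labelled Drp1_WT, a log2 difference of -0.21 (SE 0.19, edgeR adjusted p = 0.706). Whole-gene counts do not show whether an exon is missing, and 5 libraries labelled Drp1_WT (tubes 11 to 15, of mice 3 and 4) were at 116 to 156 CPM while the other Drp1_WT libraries started at 234 CPM. One library labelled Drp1_KO, tube 10 of mouse b, stood apart. Its 12 oocyte markers (Zp1, Zp2, Zp3, Gdf9, Bmp15 and others) summed to 4468 CPM, against 23860 to 41030 CPM in the other libraries. Oosp1 made up 3273 CPM of that sum, above its median of 2230 CPM in the other libraries. Each of the remaining oocyte markers was below its median there. The 14 immune markers of tube 10 summed to 799.8 CPM, led by Lyz2 at 440 CPM, against 15.1 to 122 CPM elsewhere. Outside tube 10, all 12 oocyte markers reached a median of 1 CPM over oocytes. So did 7 of 18 granulosa and cumulus markers (sums of 84.6 to 149 CPM in Drp1_KO and 96.8 to 159 in Drp1_WT, with Tnfaip6 at 0), 3 of 14 immune markers (30.4 to 78.7 and 15.1 to 122, with Cd14 at 0), 4 of 12 markers of stroma, endothelium and epithelium (26.9 to 57.2 and 26.7 to 74.6, with Cdh5 at 0), 0 of 5 erythrocyte markers (at most 0.772 and 0.852, with Hbb-bt at 0) and 2 of 4 plasma cell markers (20.4 to 56.2 and 25.0 to 77.8). Their part in the results was not tested.

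The level of many chaperones was high, and that of several stress regulators among the members was low. Levels of different genes were compared as CPM per kilobase of exon, averaged over the 9 mice. Creld2, an ER disulphide isomerase known as a stress-inducible gene, came first at 213 CPM per kilobase, above 97.8% of the 12812 tested genes. Sec61b, a small subunit of the translocon, followed at 101, then calreticulin (Calr) at 91.6 and the disulphide isomerase Pdia6 at 90.5. Hsp90b1 (62.4), calnexin (Canx, 62.3) and Hspa5 (60.97 CPM per kilobase) lay close together and were above about 92.0% of tested genes. The 14 highest members, down to the isomerase Pdia4 at 38.2 CPM per kilobase, held 11 chaperones, cochaperones or folding enzymes, the exceptions being Sec61b and the degradation factors Os9 (44.5) and Edem2 (42.9).

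The sensors were far apart from each other. Ern1, which encodes IRE1, stood at 17.3 CPM per kilobase, above 78.2% of tested genes. Its substrate Xbp1 stood at 0.311, above 12.7% of tested genes, and Eif2ak3, which encodes PERK, at 0.504, above 19.1%. Atf6 (4.77) and its homologue Atf6b (1.37 CPM per kilobase) lay between them. Ern1 mRNA was therefore abundant in oocytes in which the mRNA that IRE1 splices was close to the counting limit. The deposited values are whole-gene counts and do not show how much of the Xbp1 mRNA was spliced.

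Within the same families, some genes were abundant and their relatives scarce. Ero1lb, an oxidase that recharges disulphide isomerases, was at 7.95 CPM per kilobase, and its paralogue Ero1l at 0.343. Edem2, a mannosidase-like factor that marks glycoproteins for disposal, was at 42.9, against 4.23 for Edem1 and 0.808 for Edem3. Hyou1, a nucleotide exchange factor of BiP, was at 0.508 although BiP itself was at 60.97 CPM per kilobase. Sil1, another exchange factor of BiP and one of the related genes described further on, was at 28.2. Herpud1, a membrane organizer of the degradation complex, was the lowest at 0.154, with 0 counts in 18 of 36 oocytes, where a count of 0 allows up to 3 counts, or 0.405 to 0.944 CPM depending on the library.

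**Figure D1:**
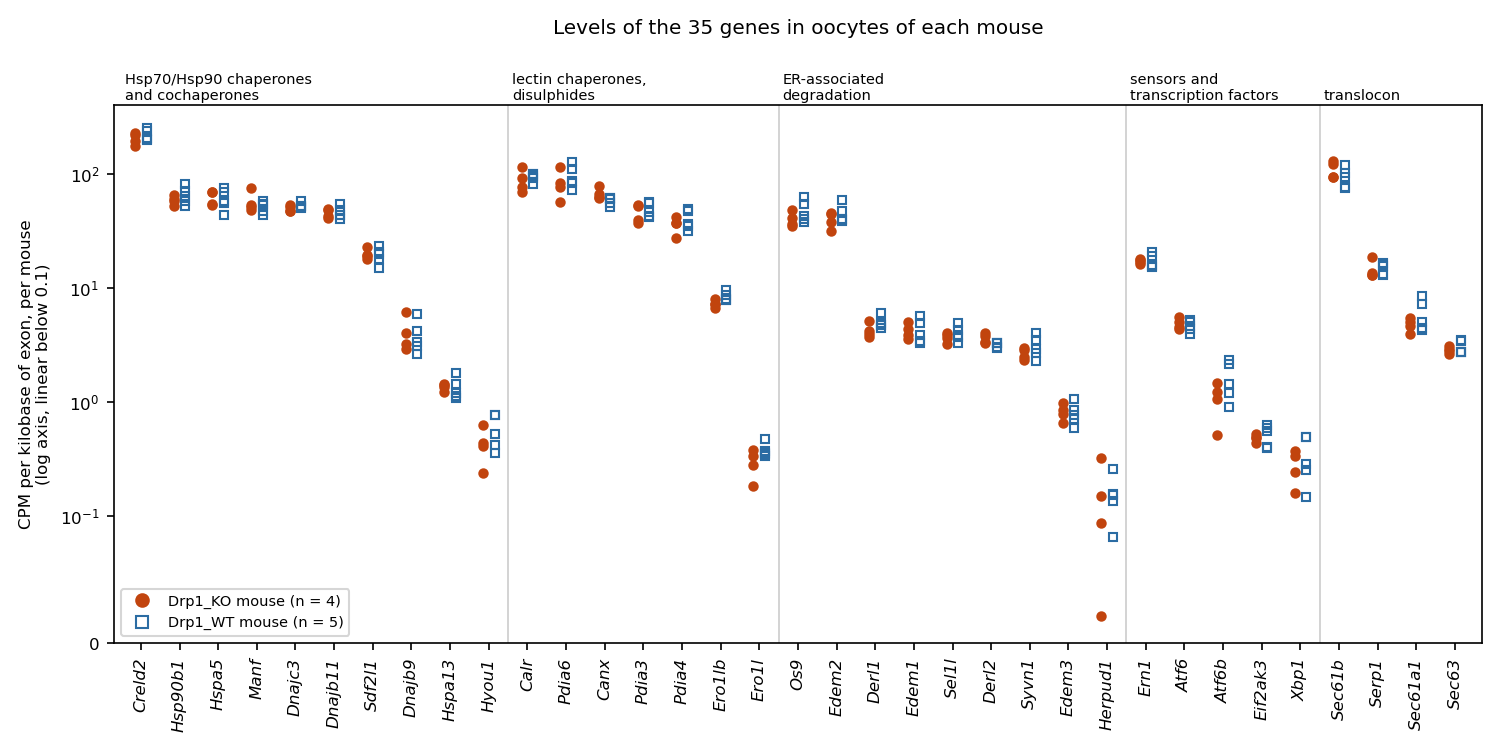
Level of each member (x axis, by role) in each mouse, in CPM per kilobase of exon (y axis, log above 0.1 and linear below); filled points are the 4 Drp1_KO mice and open squares the 5 Drp1_WT mice. The mice of both labels overlap for every member, from Creld2 at the top of the range (213) to Herpud1 at the bottom (0.154).

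Between the labels, none of the 34 members that passed the filter on low counts was called (edgeR on counts summed per mouse, adjusted p under 0.05). In the same fit 2 of 12812 genes were called, a background of 0.0156%, so a count of 0 among 34 is near what the whole table gives. DESeq2 and limma-voom also called 0 members, against 0.256% and 0.0781% of all genes. At an unadjusted p under 0.05 edgeR counted 0 of 34 members, against 9.69% of all tested genes. Every member had overlapping ranges of mice, while 328 tested genes (2.56%) had ranges that did not overlap. Herpud1 did not pass the filter and had no test.

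The estimated differences were small for most members. The log2 fold changes (Drp1_KO minus Drp1_WT) ran from -0.57 to 0.24, with 10 positive and 24 negative and a median of -0.09, against -0.00 over all tested genes. The median absolute log2 fold change was 0.13, against 0.18. For 26 of the 34 members (76.5%) the 95% interval lay within a 1.5-fold change in either direction, which was so for 48.1% of all tested genes. Intervals are wider at low counts, and the members were mostly of higher level than the tested genes. By CPM per kilobase the member of rank 25, Derl2, was above 50.3% of tested genes. Genes of matched level were not compared, so neither contrast with all genes is read as a trait of the module. The 8 members whose interval allowed a larger change were Atf6b, Xbp1, Hyou1, Ero1l, Dnajb9, Sec61a1, Pdia6 and Os9. The median of the members was 0.0033 without tubes 11 to 15 of Drp1_WT, so its sign rested on these libraries. It was 0.0227 when tube 10 of Drp1_KO and tube 29 of Drp1_WT were left out as well. Without tube 10 alone it was -0.0674.

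**Figure D2:**
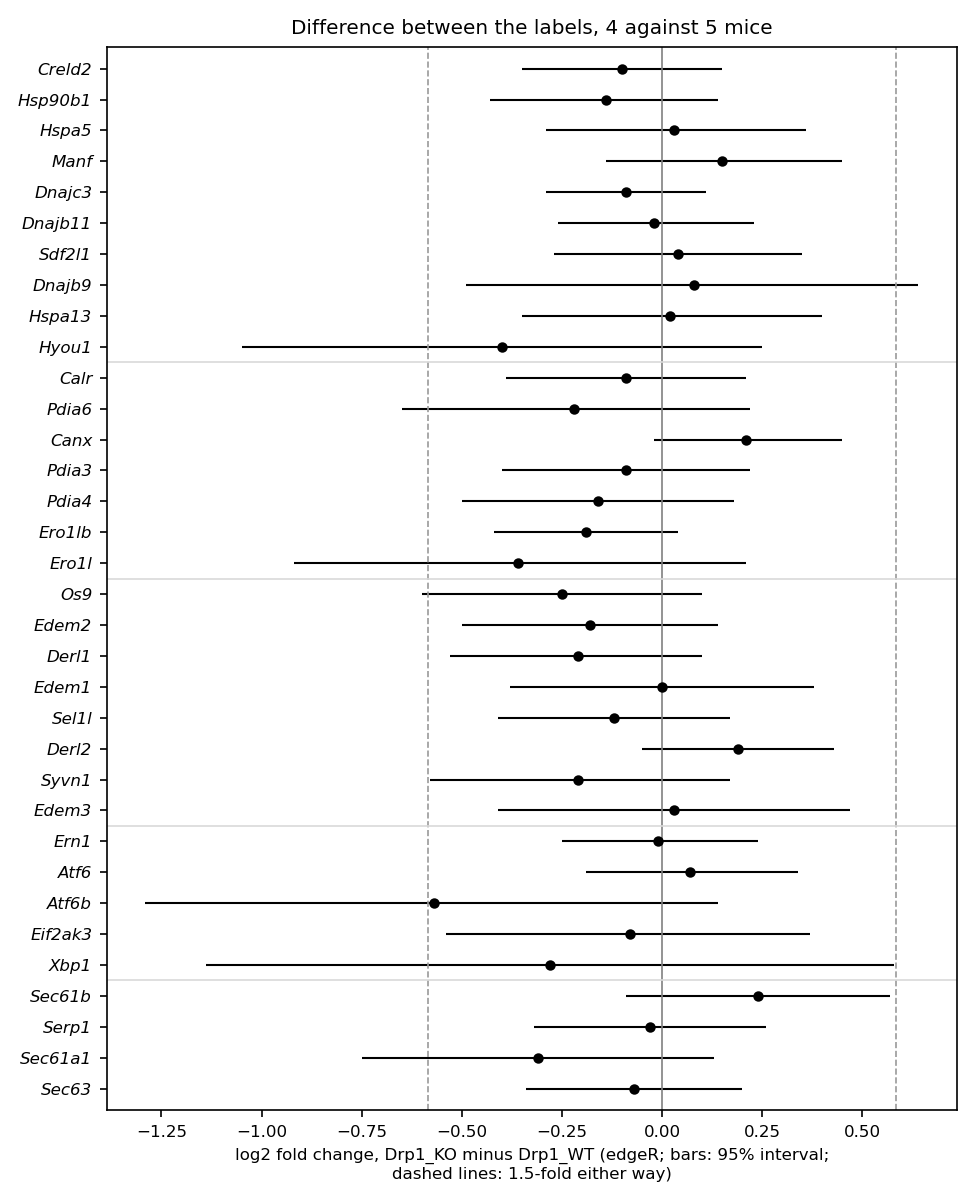
Log2 fold change (Drp1_KO minus Drp1_WT, x axis) of the 34 tested members by role, with bars for the 95% interval from edgeR over 4 and 5 mice and dashed lines at 1.5-fold. Every interval crosses 0, and the widest belong to members of low level such as Xbp1 (-1.14 to 0.58) and Atf6b (-1.29 to 0.14).

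Among the chaperones of the Hsp70 and Hsp90 families and their cochaperones, 5 of 10 had a positive and 5 a negative log2 fold change, with a median of 0.00. Hspa5, the ER Hsp70 and the usual index of ER stress, was at 229, 293, 294 and 229.8 CPM in Drp1_KO mice a to d and at 234, 187, 245, 293 and 317 CPM in Drp1_WT mice 1 to 5. The lowest and the highest mouse were both Drp1_WT, and the Drp1_KO mice lay within their range. The means were 261 ± 37.0 (SD, n = 4) and 255 ± 51.2 CPM (SD, n = 5), a log2 fold change of 0.03 (95% interval -0.29 to 0.36, edgeR adjusted p = 0.945). Without tube 10 and Drp1_WT tubes 11 to 15 and 29 it was 0.28 (edgeR adjusted p = 0.911), which did not pass the test.

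Creld2 was at 264, 301, 313 and 238 CPM in mice a to d and at 322, 274, 281, 276 and 344 CPM in mice 1 to 5. Mice c and b lay among the Drp1_WT values and mice a and d below all of them. Its log2 fold change was -0.10 (95% interval -0.35 to 0.15, edgeR adjusted p = 0.755). The other members of this group were Hsp90b1 (GRP94, the ER Hsp90), the J-domain cochaperones Dnajb9, Dnajb11 and Dnajc3, Sdf2l1 (a partner of Dnajb11), Manf (a secreted ER stress protein), Hyou1 and the Hsp70 family protein Hspa13. Their log2 fold changes ran from -0.40 (Hyou1) to 0.15 (Manf), with edgeR adjusted p of at least 0.634.

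The lectin chaperones and disulphide enzymes had a negative log2 fold change in 6 of 7 cases, with a median log2 fold change of -0.16, and 0 of 7 passed the test. Canx, the membrane-bound lectin chaperone, was the exception and had the smallest p of the whole module. It was at 313, 293, 288 and 372 CPM in mice a to d and at 239, 281, 289, 264 and 292 CPM in mice 1 to 5. Mice d and a were the highest, mouse b was above every Drp1_WT mouse by less than 1 CPM, and mouse c lay within their range, so the groups overlapped. The means were 316 ± 38.4 (SD, n = 4) and 273 ± 22.0 CPM (SD, n = 5), a log2 fold change of 0.21 (SE 0.11, 95% interval -0.02 to 0.45, edgeR adjusted p = 0.535).

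Calr, the soluble lectin partner of calnexin, was at 223, 264, 329.8 and 201 CPM in mice a to d and at 291, 235, 264, 288 and 277 CPM in mice 1 to 5. The Drp1_KO mice held both the lowest and the highest value, and their SD of 56.6 CPM was above that of the Drp1_WT mice, 22.7 CPM. This gave a log2 fold change of -0.09 (95% interval -0.39 to 0.21, edgeR adjusted p = 0.819). Ero1lb was at 48.8, 44.9, 53.8 and 48.8 CPM in mice a to d and at 52.4, 52.6, 57.4, 53.6 and 63.6 CPM in mice 1 to 5. Mice a, b and d were below every Drp1_WT mouse and mouse c was above 3 of them. Its log2 fold change was -0.19 (SE 0.11, 95% interval -0.42 to 0.04, edgeR adjusted p = 0.555). The disulphide isomerases Pdia3, Pdia4 and Pdia6 and the oxidase Ero1l were at -0.09, -0.16, -0.22 and -0.36 on the same log2 scale. Pdia6 came to 0.03 without Drp1_WT tubes 11 to 15, where it was high in 4 of 5 oocytes (621 to 662 CPM, and 233 CPM in tube 14).

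Of the 8 tested genes of ER-associated degradation, 6 had a negative and 2 a positive log2 fold change, with a median of -0.15. Derl2, a channel-forming derlin, was at 27.2, 30.8, 26.8 and 32.4 CPM in mice a to d and at 24.7, 24.0, 26.6, 26.4 and 26.8 CPM in mice 1 to 5. Mice a, b and d were above every Drp1_WT mouse, and mouse c stood next to mouse 5. On the log2 scale the difference was 0.19 (SE 0.11, 95% interval -0.05 to 0.43, edgeR adjusted p = 0.567). Reads of Derl2 and of Mis12, which overlaps it on the opposite strand, cannot be told apart without strand.

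Os9, a lectin that delivers glycoproteins to the ubiquitin ligase complex, was at 109, 95.1, 127 and 91.9 CPM in mice a to d and at 167, 106, 113, 144 and 100.1 CPM in mice 1 to 5. Mice 1 and 4 were the highest, and the other 7 mice were mixed. The log2 fold change was -0.25 (95% interval -0.60 to 0.10, edgeR adjusted p = 0.586). Sel1l and Syvn1, the adaptor and the ubiquitin ligase of the same complex, were at -0.12 and -0.21. Derl1 was at -0.21, Edem2 at -0.18, Edem1 at -0.00 and Edem3 at 0.03, all with edgeR adjusted p of at least 0.608. Herpud1 lay at 0.349, 0.765, 0.221 and 0.0492 CPM in mice a to d and at 0.609, 0.321, 0.362, 0.367 and 0.195 CPM in mice 1 to 5, all near the counting limit.

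The sensors and transcription factors showed 4 negative and 1 positive log2 fold change of 5, with a median of -0.08. Ern1 was at 139, 132, 148 and 144 CPM in mice a to d and at 128, 168, 131, 157 and 124 CPM in mice 1 to 5. All Drp1_KO mice lay inside the Drp1_WT range. Its log2 fold change was -0.01 (95% interval -0.25 to 0.24, edgeR adjusted p = 0.987), an interval within a 1.5-fold change in either direction.

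Atf6 was at 40.3, 51.9, 46.8 and 42.1 CPM in mice a to d and at 46.7, 42.7, 40.4, 48.99 and 36.8 CPM in mice 1 to 5. Mouse b was the highest and mouse 5 the lowest, with the rest mixed. This gave a log2 fold change of 0.07 (95% interval -0.19 to 0.34, edgeR adjusted p = 0.840). Atf6b, a relative of ATF6 with weaker activity, was at 2.92, 3.41, 4.04 and 1.43 CPM in mice a to d and at 5.92, 6.48, 3.35, 3.98 and 2.50 CPM in mice 1 to 5. Mice 1 and 2 were above all others and mouse d below all others. Its log2 fold change of -0.57 was the most negative of the module, with a wide 95% interval of -1.29 to 0.14 (SE 0.33, edgeR adjusted p = 0.557).

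Eif2ak3 was at 3.19, 2.96, 2.65 and 3.00 CPM in mice a to d and at 2.44, 2.41, 3.58, 3.77 and 3.36 CPM in mice 1 to 5. The Drp1_KO mice lay close together between the low mice 1 and 2 and the higher mice 3, 4 and 5. On the log2 scale the difference was -0.08 (95% interval -0.54 to 0.37, edgeR adjusted p = 0.896), and 0.22 without Drp1_WT tubes 11 to 15. Xbp1 was at 0.524, 1.22, 1.103 and 0.787 CPM in mice a to d and at 0.830, 0.482, 1.61, 0.943 and 1.60 CPM in mice 1 to 5. Mouse 2 was the lowest and mice 3 and 5 were the highest. The log2 fold change was -0.28 (SE 0.40, 95% interval -1.14 to 0.58, edgeR adjusted p = 0.8002), so neither a 1.5-fold fall nor its absence could be told at this depth.

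Of the translocon genes, 1 had a positive and 3 a negative log2 fold change, with a median of -0.05. Sec61b was at 121, 156, 121 and 164 CPM in mice a to d and at 96.0, 129, 119.7, 97.3 and 153 CPM in mice 1 to 5. Mice 1 and 4 were the lowest and mice b and d the highest, with mouse 5 beside them. Its log2 fold change was 0.24 (SE 0.15, 95% interval -0.09 to 0.57, edgeR adjusted p = 0.587), and 0.18 without tube 10, which held 215 CPM. The pore subunit Sec61a1 was at -0.31, Sec63, which brings BiP to the pore, at -0.07 and the translocon-associated protein Serp1 at -0.03 on the log2 scale, with edgeR adjusted p of at least 0.598.

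Several chaperones differed widely between oocytes of one mouse. Without tube 10, Hspa5 ran over 109, 254 and 387 CPM (lowest, median, highest) in 17 Drp1_KO oocytes and over 74.3, 239 and 448 CPM in 18 Drp1_WT oocytes. Both labels covered most of the same range. In mouse 4 the 3 oocytes were at 448, 116 and 383 CPM, a 3.87-fold range within 1 animal. In mouse 3 the range was 5.39-fold upward from 74.3 CPM, and in mouse 1 it was 1.13-fold (229 to 258 CPM). Oocytes low in Hspa5 were thus found in mice 3, 4 and 5 of Drp1_WT and in mice c and d of Drp1_KO, beside oocytes of the same animal at 2.24 to 5.39 times their level.

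Of the members with a median of at least 20 CPM, Hspa5 and 4 others had the widest ranges, 3 of them folding factors and Sel1l a degradation factor. Pdia6 spanned 82.5 to 662 CPM (8.03-fold over 35 oocytes), Pdia3 55.8 to 267 (4.79-fold), Calr 106 to 455 (4.29-fold) and Sel1l 10.4 to 54.03 CPM (5.19-fold). Some members of a few CPM spanned more, such as Eif2ak3 (23.1-fold) and Atf6b (13.3-fold). Canx spanned only 236 to 409 CPM (1.73-fold), Dnajc3 179.9 to 329.6 (1.83-fold) and Manf 144 to 279.9 CPM (1.94-fold). Genes of similar level in the same compartment therefore differed in their spread. The SD of log2(CPM + 1) within mice was 0.69 for Pdia6 and 0.67 for Hspa5, at the percentiles 98.0 and 97.7 of 8599 genes with a median of at least 5 CPM, and 0.13 for Canx, at the percentile 1.71. Over the 28 members of at least 5 CPM the median SD was 0.33, against 0.31 for all such genes, and over the 24 members of at least 20 CPM it was 0.31, against 0.26.

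**Figure D3:**
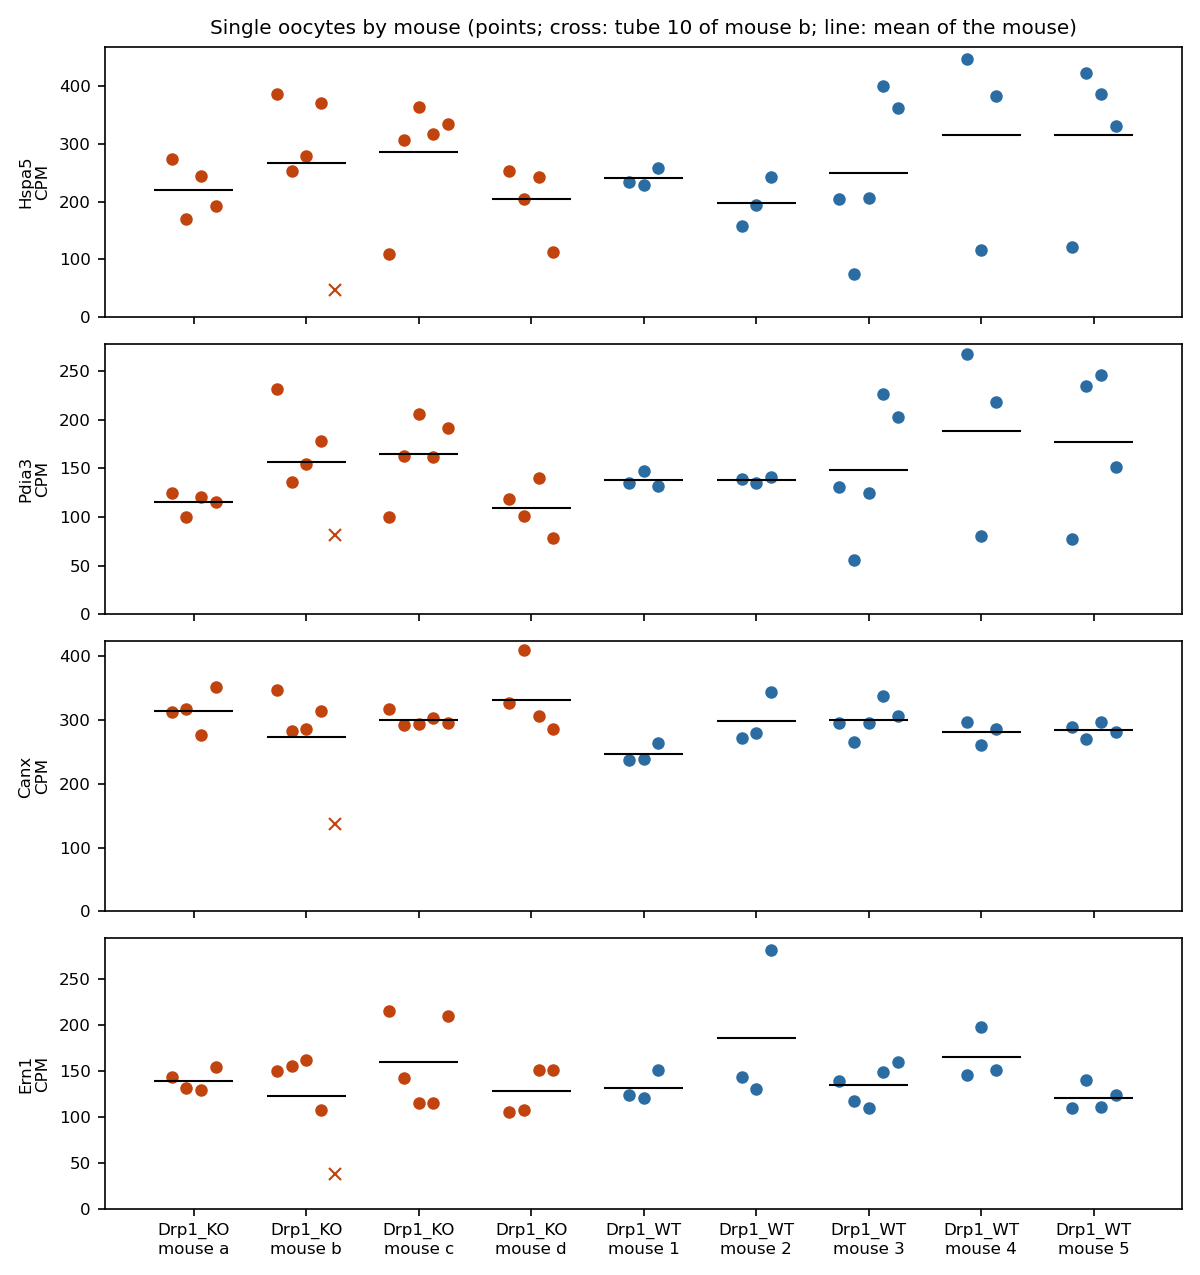
Level of Hspa5, Pdia3, Canx and Ern1 in each of 36 oocytes (y axis, CPM of the oocyte's own total from 0) by mouse (x axis), coloured by genotype label, with a line at the mean of the mouse and a cross for tube 10. Hspa5 and Pdia3 are low in the same oocytes, such as tube 14 of mouse 4 (Hspa5 116 and Pdia3 80.6 CPM), whereas Canx stays between 236 and 409 CPM outside tube 10.

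Several members varied together with Hspa5 from oocyte to oocyte. In mouse 4, Pdia3, an isomerase that works with calnexin and calreticulin, was at 267, 80.6 and 218 CPM in the oocytes where Hspa5 was at 448, 116 and 383. Over 35 oocytes, with the mean of each mouse removed from log2(CPM + 1), Spearman's rho with Hspa5 was 0.92 for Pdia3, which ranked 1 among 8598 genes. Hsp90b1 ranked 2 (rho 0.88), Calr 8 (0.85), Sel1l 11 (0.84) and Creld2 105 (0.72). Hence 4 of the 27 other members were among the 100 genes closest to Hspa5, which hold 1.16% of all genes. This count was 2 within Drp1_WT, where Pdia3 ranked 139, Calr 150 and Creld2 293, and 3 within Drp1_KO without tube 10, where Pdia3 ranked 1 and Sel1l 122. It was 4 or 5 in the other settings run. The points share libraries, depth and scaling to a total, so rho is given as a description without a p, and the members singled out here were chosen after their values were seen.

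For these 5 members the correlation was high in every setting run. Across 7 settings (with tube 10, without centring on mice, within each label, without Drp1_WT tubes 11 to 15 and 29, and with TMM factors) rho with Hspa5 stayed between 0.82 and 0.92 for Pdia3, 0.79 and 0.90 for Hsp90b1, 0.80 and 0.89 for Calr, 0.70 and 0.91 for Sel1l and 0.62 and 0.79 for Creld2. For Pdia6, which had the largest SD within mice, it was 0.53 over 35 oocytes, 0.04 within Drp1_KO and 0.83 within Drp1_WT. The genes outside the module nearest to Hspa5 were Gdf9, the oocyte growth factor (rho 0.88), Svopl (0.87), the ER-Golgi calcium-binding gene Sdf4 (0.86), the histone demethylase gene Kdm1b (0.86) and Zfp473 (0.86).

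**Figure D4:**
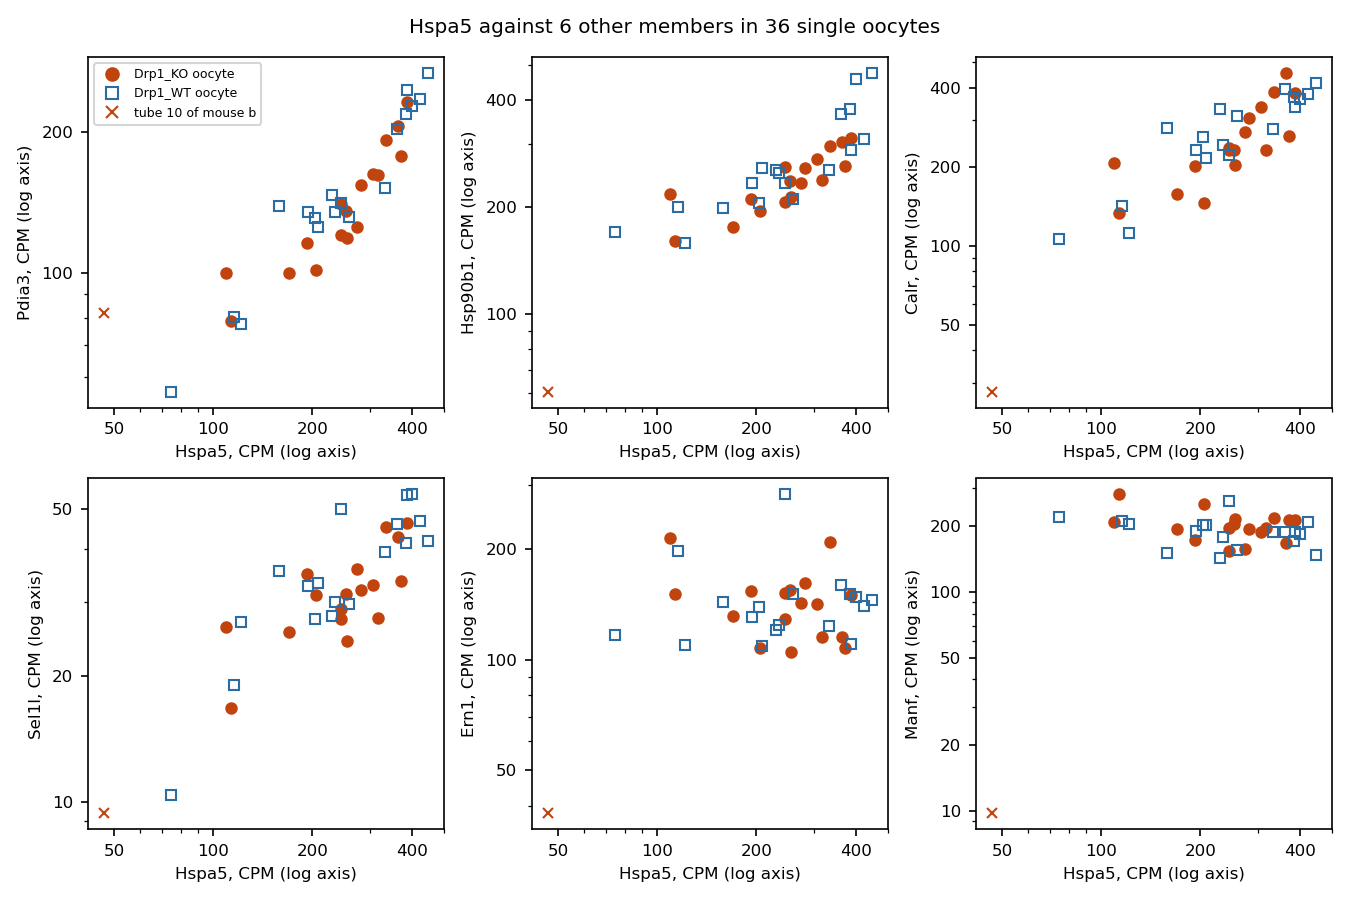
Level of Pdia3, Hsp90b1, Calr, Sel1l, Ern1 and Manf (y axes) against Hspa5 (x axes) in 36 single oocytes (CPM, log axes), with filled points for Drp1_KO, open squares for Drp1_WT and a cross for tube 10. The points of Pdia3 lie closest to a line (rho 0.92 within mice over 35 oocytes), and those of Manf slope downward (rho -0.43).

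Other members did not follow Hspa5. Manf had a rho of -0.43 and Dnajb9, the J-domain protein that returns BiP to IRE1, one of -0.20. Ern1 (-0.02), Derl2 (0.09) and Sec61b (0.11) were near 0. High values were also found between Os9 and Edem2 (rho 0.88), Dnajb11 and Sec61a1 (0.81), and Pdia4 and Edem2 (0.74), pairs picked after their values were seen. These 5 members had a rho of 0.32 to 0.50 with Hspa5. Among themselves, all pairs of these 5 had a rho of 0.61 to 0.88. Os9 also had a rho of 0.73 with Creld2 and 0.65 with Calr, and Edem2 one of 0.67 with Creld2. Whether the 5 form a set apart from the followers of Hspa5 was not tested. Sec61b ran opposite to Dnajb11 (rho -0.50), and Ern1 followed Derl2 (0.67).

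**Figure D5:**
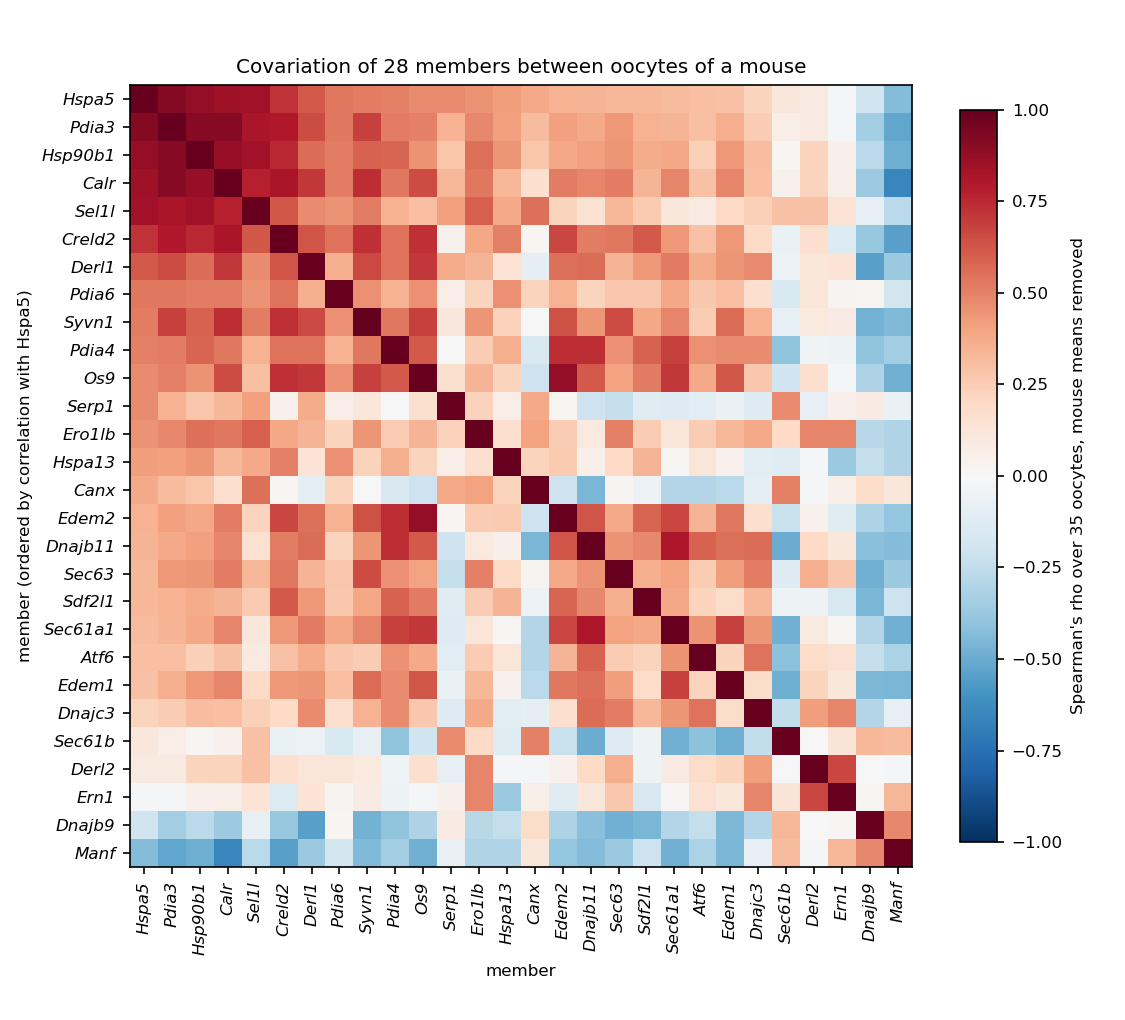
Spearman's rho between the 28 members of at least 5 CPM over 35 oocytes with mouse means removed (colour from -1 to 1). Members are ordered by their rho with Hspa5 on both axes, so Pdia3, Hsp90b1, Calr, Sel1l and Creld2 (0.92 to 0.72) form the corner block and Dnajb9 (-0.20) and Manf (-0.43) come last.

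Over all 378 pairs of the 28 members the median rho was 0.29, and 82 pairs (21.7%) were above 0.5. Over all pairs of the 8599 genes the median was 0.03, with 6.82% above 0.5. With TMM factors the median of the members was 0.12 and the share above 0.5 was 12.4%, against 5.26% of all pairs. Within labels the median was 0.45 over 18 Drp1_WT oocytes and 0.07 over 17 Drp1_KO oocytes, and this difference was not tested. The pooled value of 0.29, which already leaves out tube 10, became 0.11 when Drp1_WT tubes 11 to 15 and 29 were left out as well. Its size thus rested in part on these Drp1_WT libraries. Among members with the ERSE sequences printed above (9 genes) the median was 0.44. Between them and the 14 members searched without a full ERSE match it was 0.33, and among those 14 it was 0.18. Dnajb11, which has the ERSE-II match printed above, is one of the 14. With TMM factors these medians were 0.30, 0.19 and 0.06, and without those Drp1_WT libraries they were 0.25, 0.21 and 0.11. Within Drp1_KO without tube 10 they were 0.16, 0.09 and 0.06, and within Drp1_WT 0.66, 0.48 and 0.28, so the order was the same in these settings while the steps within Drp1_KO were small. Pdia3 and Sel1l, 2 of the closest followers of Hspa5, had no exact ERSE match in their windows, and Canx and Dnajc3, which have one, varied little. The groups also differed in level. Median CPM over oocytes ran from 12.2 (Syvn1) to 319 (Pdia6) in the 9 genes and from 9.19 (Dnajb9) to 152 (Dnajb11) in the 14. The part of level in the order of the groups was not tested.

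Measures of the whole library moved with the same genes. Over the 35 oocytes Hspa5 had a rho of 0.79 with the summed oocyte markers, 0.68 with the number of genes detected, 0.59 with the TMM factor, -0.43 with the mitochondrial share of counts and 0.13 with the total count. Calr and Pdia3 had a rho of 0.89 and 0.88 with the oocyte markers, and Manf one of -0.70. Hspa5 also had a rho of 0.73 with the immune markers (14 genes, 3 of them above 1 CPM), 0.61 with those of stroma, endothelium and epithelium, 0.59 with those of plasma cells, 0.08 with those of erythrocytes and -0.36 with those of granulosa and cumulus cells. The immune, stromal and plasma cell sums were each led by a single gene outside tube 10. These were C1qb (median 43.9 CPM), Pecam1 (36.7 CPM) and Sdc1 (40.4 CPM), while Lyz2, Col1a1 and Jchain had a median of 0. Their rho is therefore mostly that of these genes and not a measure of such cells. The part of the library measures and marker sums in the correlations was not tested. CPM is a share of a library, so a change in all mRNA of an oocyte would not be seen in it, and fewer transcripts of 1 gene cannot be told apart from more of others.

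Tube 10 showed the module in a library where most oocyte markers were low, Oosp1 excepted. Of the 34 members with a mean of at least 1 CPM over the 36 oocytes, 23 (67.6%) were lower there than in every other library, against 46.8% of all such genes. Hspa5 was at 46.6 CPM, Calr at 27.8, Manf at 9.81, Dnajb11 at 1.23 and Sec61a1 at 0.613 CPM. Those values are below the lowest of the other libraries, which were 74.3, 106, 144, 85.8 and 18.0 CPM. Sec61b at 215 CPM and Edem1 at 48.6 CPM were above the highest of the others, 169 and 44.3 CPM. Pdia3 (81.9), Atf6 (39.4) and Edem2 (78.3 CPM) lay within the range of the other libraries. No result above on covariation uses this library unless stated.

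The wider pathway was described by a list of 116 other genes of ER folding, degradation, stress signalling and translocation. Of these 107 were tested and 0 were called by edgeR, DESeq2 or limma-voom. At an unadjusted edgeR p under 0.05, 4 were higher and 5 lower, against 4.89% and 4.81% of all genes, and the median log2 fold change was 0.01. The 4 higher genes were Selenok, Srp14, Tram1 and Tram2, and the 5 lower ones were Derl3, Sgta, Txndc5, Prkcsh and Stc2. These shares are near the background. Ranges of mice did not overlap for 3 of the 107 (2.80%), against 2.56% of all tested genes. The group of translocation, signal cleavage and glycan transfer had 26 positive and 8 negative log2 fold changes, with a median of 0.12. The medians were -0.07 for degradation, -0.07 for chaperones and glycoprotein folding and -0.01 for stress signalling. The difference between these groups was not tested.

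The 2 most abundant related genes per kilobase of each of the 4 groups of the list are given here, and 0 of these 8 passed the test. Srp14, a subunit of the signal recognition particle, was at 328 ± 86.6 (SD, n = 4) and 245 ± 51.5 CPM (SD, n = 5) in Drp1_KO and Drp1_WT, a log2 fold change of 0.42 (edgeR adjusted p = 0.508). Dad1, of the oligosaccharyltransferase, was at 643 ± 162 and 569 ± 112 CPM (0.18, edgeR adjusted p = 0.719). Selenok, a selenoprotein of ER-associated degradation, was at 221 ± 40.5 and 172 ± 27.3 CPM (0.37, edgeR adjusted p = 0.499). Derl3, a relative of Derl1 and Derl2 and the only related gene of 91 searched with an ERSE match, was at 91.0 ± 11.4 and 109.7 ± 12.4 CPM (-0.27, edgeR adjusted p = 0.508). Sdf2 and the germ-cell calreticulin gene Calr3 were at log2 fold changes of 0.09 and 0.10. The bZIP factor gene Creb3l4 was at 0.09 and Eif2s1, which encodes the PERK substrate eIF2α, at 0.16, with edgeR adjusted p of at least 0.651.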

How the data were processed

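Each of 36 libraries held one oocyte, lysed whole, with SMARTer cDNA and Nextera XT libraries read in single-end mode, per the labels' protocols. Tools listed in the submitters' processing notes are Picard, STAR, Subread 1.5.2 and featureCounts, with build GRCm38. How strand, multiple matches and duplicates were handled, and with which annotation, is not given in the sources used. The authors deposited raw counts per Ensembl gene, and 0 rows name no gene. IDs were named with GENCODE M21 (21876 of 21968 matched). Exons of Derl2, Manf, Pdia3, Pdia6, Serp1 and Syvn1 overlap other counted genes.

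Counts were summed per mouse and tested with edgeR 4.0.16 (R 4.3.3): TMM factors, its filter by genotype, robust quasi-likelihood fit, and Benjamini-Hochberg adjustment over all tested genes. Mouse levels are CPM with TMM factors, oocyte levels CPM of the oocyte's total. DESeq2 1.42.0, limma 3.58.1 (voom with mouse as random effect, trend), other factors, filters, tube sets and left-out libraries or mice were alternatives. The settings for correlations were added after seeing the data. Of 306 pairs of libraries within a label, 0 looked like 1 library deposited again (lowest chi-square divided by its degrees of freedom 5.77). Counting limits cover counting error only, since no molecular identifiers are named.

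Members and lists were chosen with earlier results of these data known. Members are given mouse by mouse if among the 4 smallest p or most abundant per kilobase of their role. So are Hspa5 and the sensors Atf6, Ern1, Eif2ak3 and Xbp1. Log2 fold changes of related genes are given for the 2 most abundant per kilobase of each group. Marker lists covered oocyte, granulosa and cumulus, immune, stromal, endothelial and epithelial, erythrocyte and plasma cells (Igkc was not matched).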

Additional observations from a re-analysis of the deposited data

Results flagged for a closer look

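Of 70 groups of 4 or 5 mice (35 members, 2 labels), 4 had one mouse far from the others, where chance gives about 1 in 20. Manf was at 263.7 CPM in mouse d (Drp1_KO), above the 172 to 187 CPM of mice a to c. Serp1 was at 85.9 CPM in the same mouse, above 60.6 to 62.5 CPM. Mouse d shares the tube numbers 27 to 30 with mouse 5, the highest Drp1_WT mouse for both genes (Manf 204.0 CPM, Serp1 76.3 CPM). Dnajb9 was also highest in mice d and 5 (15.6 and 15.2 CPM, against 6.70 to 10.7 CPM in the others). Without tubes 27 to 30 the log2 fold change between the labels was 0.04 for Manf (0.15 with them) and -0.13 for Serp1 (-0.03 with them), and neither gene was called by edgeR in either case. Ero1l was at 2.53 CPM in mouse 3 (Drp1_WT), above 1.78 to 1.98 CPM in the other Drp1_WT mice. Derl1 was at 20.3 CPM in mouse 4 (Drp1_WT), above 14.8 to 16.3 CPM.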

How the results depend on the processing

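With edgeR, DESeq2, limma or any other of the 21 alternatives, 0 members and 0 related genes were called. At an unadjusted p under 0.05 at most 2 members passed (0 in the main result and with DESeq2), and the smallest adjusted p of a member was 0.287. Over all genes the count of 2 became 37 with DESeq2 (14 higher, 23 lower), 10 with limma-voom (7 higher, 3 lower), 4 without tubes 27 to 30, and 1 to 3 without each mouse in turn. The median log2 fold change of the members, -0.0897, became 0.0033 without Drp1_WT tubes 11 to 15 and 0.0227 without those, Drp1_KO tube 10 and Drp1_WT tube 29, with mouse 4 absent from both; the cause was not tested. In the other alternatives it was -0.05 to -0.17, the last with total counts only, where the median of all genes was -0.09. The log2 fold change changed sign in at least 1 alternative for 20 of 34 members (83 of 706 values), of at most 0.22 in size, so no direction is claimed for them. Dnajb11 came to -0.29 (voom) and -0.30 (trend), and Eif2ak3, at -0.08, to 0.22 and 0.24 without the libraries named above. No paired analysis was possible because the mice carry letters in one label and numbers in the other. Depth limits Herpud1, Xbp1 and other members of a few CPM.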
